A study of Mus musculus with 2 samples.

Results

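The genes described here are the interferon-induced gene families of the mouse, read in single cells of the hippocampus of aged mice. They were chosen by symbol: every gene of the deposited matrices whose name starts with Ifi, Gbp, Oas, Irf, Isg, Stat, Iigp or Irgm, together with Bst2, Usp18, Rsad2 and Xaf1. This gave 81 of the 19059 genes measured. Mx1 and Mx2 belong to the same definition and were not analysed here. Irf2bp1, Irf2bp2 and Irf2bpl, which encode binding partners of the factor Irf2, and Isg20l2 entered only through their spelling. Several Stat and Irf genes mainly serve other cytokines. These genes are pointed out where they are named, but the counts, medians and plots of members include them unless stated. The control library was made from the pooled hippocampi of 4 C57BL/6 mice fed standard chow, and the tomatidine library from those of 4 mice of the same strain whose diet held 0.05% tomatidine, a steroidal alkaloid of the tomato plant. The diets began at 21 months of age and lasted 3 months. Both sexes were used in the study, and the sexes of the pooled mice are not given in the sources used here. Each arm is therefore 1 library, so a difference between the arms has no replicate check, nothing was tested and p-values are not given.

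Interferons are secreted signals of the antiviral response. Type I interferons bind a receptor made of Ifnar1 and Ifnar2, type II interferon binds Ifngr1 and Ifngr2, and the kinases Jak1, Jak2 and Tyk2 then activate Stat factors. A complex that holds Stat2 and Irf9 binds the interferon-stimulated response element of target promoters, and the gamma-activated site is another element that Stat factors bind. The products include guanylate-binding proteins (Gbp) and immunity-related GTPases (IRG), which attack the compartments of intracellular microbes, Ifit proteins, which bind foreign RNA, oligoadenylate synthetases (Oas), which sense double-stranded RNA, and Usp18, which shuts the signal down again. In the brain, both the endothelial cells of the blood-brain barrier and the microglia can respond to interferon.

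The assay counts probes bound to transcripts of fixed cells, and each value is a number of unique molecular identifiers (UMIs, tags on single molecules). Of 15912 control and 15185 tomatidine cells, 15115 and 14502 passed the filters, with a median of 7077 and 7408 UMIs per cell. Of the kept cells of each library, 277 carried a barcode also found in the other. Cells were clustered without the interferon genes and the clusters named from marker genes, and each name ends in -like for that reason. In 8 classes the UMIs of a gene were added up per library and scaled to the total UMI count of the class there, as counts per 1000000 UMIs (CPM). The log2 ratio is that of the tomatidine CPM over the control CPM, pairs of values are given in the order control and tomatidine, and the 95% intervals in parentheses cover counting error only, not differences between mice. Members with 20 or more UMIs in a class were compared in it. A gene passes more easily where it is high, so counts describe the members that passed and not the whole set. In all, 68 of the 81 members passed in at least 1 class, 28 in all 8, and 13 in none. Those 13 were Gbp2b, Ifi27l2b, Ifi44l, Oas3, Oas1d, Oas1e, Oas1f, Oas1g, Oas1h, Ifi202b, Ifi206, Ifi208 and Ifi214. Members at least 25% higher or at least 20% lower in CPM, which is the same ratio in either direction, are counted as a description of size and not as a call of change.

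Promoter windows from RefSeq (build GRCm38.p6, 250 bases before to 50 after the transcript start) were found for 66 of the 81 members. The core of the interferon-stimulated response element, which is GAAA, any 2 bases and GAAA again, read on both strands, occurred in 32 of them, or 48.5%, against 3.99% of the 27025 symbols with a window. The gamma-activated site TTCNNNGAA, which reads the same on both strands, occurred in 15 members, or 22.7%, against 9.55% of all symbols, and 7 members had both. Among the members compared in endothelial-like cells, the log2 ratio had a median of 0.36 for the 21 with the response element and 0.26 for the 25 with a window but without it. For the gamma-activated site the medians were 0.32 for the 13 with it and 0.30 for the 33 without it. Both splits are a description only. The stretches below are shown because they hold the response element of members with some of the highest ratios in endothelial-like cells, followed by Isg15 and Rsad2, whose levels were close there. They are written 5′ to 3′ on the strand of the gene, with the motif in capitals (TTTC, any 2 bases and TTTC where it lies on the opposite strand).
Ifit3b (chr19:34607749-34607832, plus strand): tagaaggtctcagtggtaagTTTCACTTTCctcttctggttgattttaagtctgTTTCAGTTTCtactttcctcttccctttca
Ifit1 (chr19:34640765-34640833, plus strand): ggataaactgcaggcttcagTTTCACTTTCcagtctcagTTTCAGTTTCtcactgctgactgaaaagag
Gbp2 (chr3:142620584-142620633, plus strand): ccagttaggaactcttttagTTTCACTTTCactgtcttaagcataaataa
Irgm2 (chr11:58214893-58214942, plus strand): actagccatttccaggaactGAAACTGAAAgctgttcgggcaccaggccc
Bst2 (chr8:71537567-71537622, minus strand): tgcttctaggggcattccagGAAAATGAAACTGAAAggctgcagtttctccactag
Gbp5 (chr3:142496749-142496798, plus strand): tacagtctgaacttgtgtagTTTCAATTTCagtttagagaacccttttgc
Ifit3 (chr19:34583353-34583436, plus strand): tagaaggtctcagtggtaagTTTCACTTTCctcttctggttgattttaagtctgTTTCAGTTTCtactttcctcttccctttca
Gbp3 (chr3:142559979-142560034, plus strand): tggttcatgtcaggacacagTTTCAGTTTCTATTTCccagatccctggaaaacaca
Isg15 (chr4:156200855-156200916, minus strand): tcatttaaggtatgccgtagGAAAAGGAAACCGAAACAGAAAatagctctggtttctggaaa
Rsad2 (chr12:26456543-26456592, minus strand): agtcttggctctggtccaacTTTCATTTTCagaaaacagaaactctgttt
The stretches of Ifit3 and Ifit3b were identical, and how far the probes tell these neighbouring copies apart is not known, so their counts are uncertain as single genes. The same holds for Gbp4, Gbp8 and Gbp9, whose annotated spans on chromosome 5 overlap. In Isg15 the capitals hold 3 overlapping matches. In Bst2 and Gbp3 they hold 2. Irf7, Ifit2, Irf1, Irf9 and Xaf1 have a window without this motif, which says only that these letters are not in it. No window was found for Gbp4, Iigp1, Oas2 or Usp18.

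Endothelial-like cells, which line the vessels, held the highest CPM of more members than any other class. Among 64 members with 100 or more UMIs over the 8 classes, 51 had their highest CPM in the same class in both libraries, and for 26 of these the intervals of the highest and the next class were apart in both. The shared highest class was endothelial-like for 29 members, microglia-like for 10, meningeal fibroblast-like for 7, oligodendrocyte precursor-like for 3, and oligodendrocyte-like and interneuron-like for 1 each. Irf2bp1 and Isg20l2, which entered through their spelling, were among the 3 of precursor-like cells. Gbp5, which acts in inflammasome assembly, had 68.6 and 99.6 CPM in endothelial-like cells and 16.5 and 11.9 CPM in microglia-like cells. Isg15, a ubiquitin-like protein, had 106 and 115 CPM in endothelial-like cells, with meningeal fibroblast-like cells next at 26.1 and 54.0 CPM. Both genes were thus foremost vascular in both libraries. Microglia-like cells led for the myeloid factors Irf5 and Irf8, for Ifi30, a lysosomal thiol reductase, and for Ifi204, Ifi207 and Ifi209 of the p200 family of DNA-binding proteins. Irf8 had 308 and 290.2 CPM there and 8.04 and 8.98 CPM in endothelial-like cells. Xaf1, a gene linked to cell death, was highest in oligodendrocyte-like cells at 122 and 126 CPM, ahead of endothelial-like cells at 69.5 and 91.3 CPM. The order was not clear for Bst2 in the tomatidine library, where the intervals of microglia-like and endothelial-like cells overlapped, nor for Irgm2 in the control library.

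In endothelial-like cells most members were higher in the tomatidine library. The class was 1 cluster of 295 control and 417 tomatidine cells, and all 18 endothelial markers were raised in it. Of 57 members compared, 50 had a higher CPM with tomatidine and 7 a lower one, with a median log2 ratio of 0.31 against 0.02 over all 12551 genes compared in the class. Of the 12551 genes, 53.8% had a higher CPM with tomatidine. At least 25% higher were 28 members, where the same held for 12.8% of all genes, and at least 20% lower were 0, where this held for 10.9%. The counting interval lay above 0 for 30 members and below 0 for 1. The same count was not made over all genes, so it has no share to be set against. The count at least 20% lower depends on how cells are weighted: it was 5 with each cell given the same weight and 4 with each cell thinned to 1500 UMIs. Fewer cells of a state and less RNA per cell cannot be told apart in such sums.

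**Figure D1:**
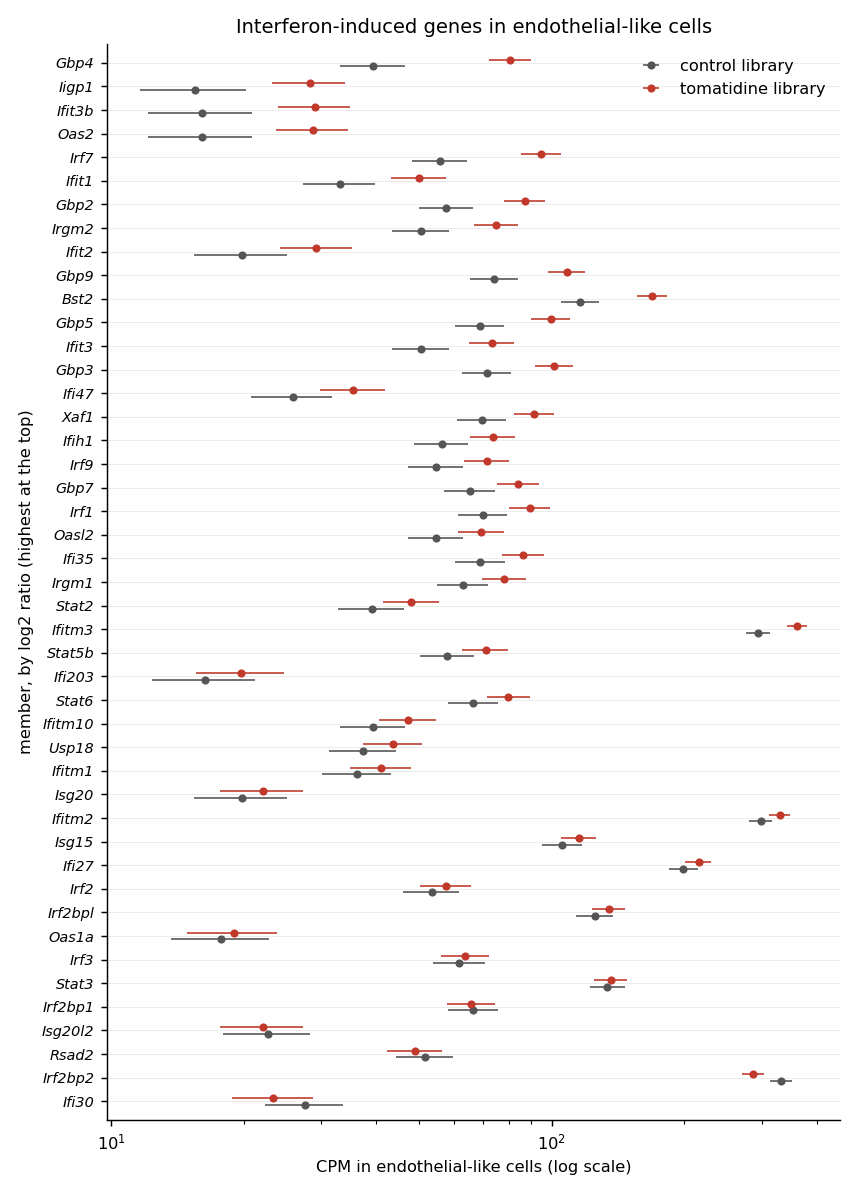
CPM (log scale) of 45 members with 100 or more UMIs in endothelial-like cells, ordered by log2 ratio, in the control and the tomatidine library; bars are exact 95% Poisson intervals, which cover counting error only. The tomatidine point lies to the right of the control point for 40 members and to the left for 5, and the distance is largest for Gbp4.

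Among the transcription factors, those that carry the interferon signal were higher. Irf7, which amplifies type I interferon production, had 194 and 369 UMIs, or 55.7 and 94.7 CPM, a log2 ratio of 0.77 (0.51 to 1.02). Stat2 had 136 and 187 UMIs and a ratio of 0.30 (−0.03 to 0.63). The interval of Stat2 included 0, that of Irf7 did not. Irf9, the partner of Stat2, had 190 and 278 UMIs and a ratio of 0.39 (0.12 to 0.66). Irf1, which type II interferon induces, had 243 and 348 UMIs and a ratio of 0.36 (0.12 to 0.60). Factors with other roles were closer to even, apart from the last pair named here. Irf3, which relays the detection of viral nucleic acid, had 61.7 and 63.6 CPM (0.04, −0.23 to 0.31), and Irf2, a repressor of interferon targets, 53.4 and 57.5 CPM (0.11, −0.18 to 0.39). Stat3, a main factor of interleukin-6 type signals, had 134 and 136 CPM (0.03, −0.16 to 0.21). Stat5b and Stat6, which serve growth hormone and interleukin signals, had ratios of 0.29 (0.02 to 0.56) and 0.27 (0.02 to 0.52), close to that of Stat2.

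The GTPases were higher as a family. Of 9 Gbp genes 8 were compared and 7 of them had a higher CPM with tomatidine. Their summed UMIs were 1349 and 2235, or 387 and 573 CPM, a log2 ratio of 0.57 (0.47 to 0.66). Gbp4 (chromosome 5, 105115767 to 105139586) had 137 and 314 UMIs, or 39.3 and 80.6 CPM, a log2 ratio of 1.03 (0.74 to 1.33), the highest of the members with 100 or more UMIs. The others were higher by less. Gbp2, which coats the vacuoles of parasites and bacteria, had 201 and 339 UMIs (0.59, 0.34 to 0.85) and Gbp9 258 and 422 (0.55, 0.32 to 0.78). Gbp5 had 239 and 388 UMIs (0.54, 0.30 to 0.78), Gbp3 248 and 395 (0.51, 0.28 to 0.74) and Gbp7 227 and 327 (0.36, 0.12 to 0.61). Gbp8, at 13 and 12 UMIs, was the 1 compared member of the family that was not higher. The sum did not rest on 1 gene: without Gbp9, which held 19.0% of it, the ratio was 0.57. The IRG genes had 449 and 706 summed UMIs, a ratio of 0.49 (0.32 to 0.66). Iigp1 had 54 and 110 UMIs (0.86, 0.38 to 1.36), Irgm2 176 and 292 (0.57, 0.29 to 0.85) and Irgm1 219 and 304 (0.31, 0.06 to 0.57), so all members of that family were higher.

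Among the RNA-binding effectors the Ifit genes differed most. The Ifit genes had 430 and 721 summed UMIs, a log2 ratio of 0.58 (0.41 to 0.76), and 0.62 without Ifit3, their most counted gene. Ifit1 had 115 and 195 UMIs, or 33.0 and 50.04 CPM (0.60, 0.26 to 0.94), and Ifit2 69 and 114 UMIs (0.56, 0.12 to 1.01). Ifit3 had 176 and 285 UMIs (0.53, 0.26 to 0.81) and Ifit3b 56 and 113 (0.85, 0.38 to 1.34). All Ifit genes that were compared in the class were higher. The Oas genes had 346 and 504 summed UMIs, a ratio of 0.38 (0.18 to 0.58), and 5 of the 11 were compared. Oas2 had 56 and 112 UMIs (0.84, 0.36 to 1.33) and Oasl2 190 and 270 (0.34, 0.07 to 0.62), both higher, while the interval of Oas1a, with 62 and 74 UMIs, included 0 (0.09, −0.41 to 0.60). So did those of Oasl1, with 28 and 26 UMIs (−0.27, −1.10 to 0.55), and Oas1c, with 8 and 17 (0.92, −0.36 to 2.35). Ifih1, the cytoplasmic sensor of long double-stranded RNA, had 196 and 287 UMIs (0.39, 0.12 to 0.66). Xaf1 had 242 and 356 UMIs (0.39, 0.15 to 0.64), Ifi35 240 and 336 (0.32, 0.08 to 0.57) and Ifi47, an IRG-like GTPase, 90 and 138 (0.45, 0.06 to 0.85). Ifi44 had fewer than the 100 UMIs required of named members and is named, after its values were seen, because its ratio was the highest of all: 28 and 69 UMIs, 1.14 (0.49 to 1.83).

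Among the membrane proteins Bst2 differed most. Bst2 (chromosome 8, 71534255 to 71537456), or tetherin, which holds budding viruses at the cell surface, had 404 and 659 UMIs, or 116 and 169 CPM, a log2 ratio of 0.54 (0.36 to 0.73). Ifitm3, which blocks the fusion of entering viruses, had 1024 and 1406 UMIs, or 294 and 361 CPM (0.29, 0.18 to 0.41). Ifitm2 had 1039 and 1285 UMIs (0.14, 0.02 to 0.26). The intervals of Ifitm1 (0.18, −0.16 to 0.53) and Ifitm10 (0.26, −0.06 to 0.59) included 0. The sum of the Ifitm genes had 2337 and 3052 UMIs, a ratio of 0.22 (0.14 to 0.30).

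Several classical response genes had intervals that included 0 in the same cells. Isg15 had 368 and 449 UMIs (0.12, −0.08 to 0.33) and Isg20, an exonuclease, 69 and 86 (0.16, −0.32 to 0.63). Usp18, which takes Isg15 off its targets and blocks the type I receptor, had 130 and 170 UMIs (0.22, −0.11 to 0.57). Rsad2 (chromosome 12, 26442746 to 26456452), or viperin, an antiviral enzyme, had 180 and 191 UMIs (−0.08, −0.38 to 0.22). Thinned to 1500 UMIs per cell, the ratio of Rsad2 was −0.61, and in cells with a Y-linked UMI it was 0.17, so its value moves with the cells counted. Ifi27, a mitochondrial protein, had 693 and 840 UMIs (0.12, −0.03 to 0.26), Ifi203 57 and 77 (0.27, −0.24 to 0.79) and Ifi30 96 and 91 (−0.24, −0.67 to 0.19). Among the genes that the symbols alone brought in, Irf2bp2 had 1156 and 1116 UMIs, or 332 and 286 CPM (−0.21, −0.33 to −0.09), and was the only one of the 57 members whose interval lay below 0. Irf2bp1 (−0.01, −0.28 to 0.25), Irf2bpl (0.11, −0.08 to 0.29) and Isg20l2 (−0.04, −0.50 to 0.42) had intervals that included 0. Without these 4 genes the median of the members was 0.34.

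Other genes of the pathway, from lists that hold no member, were nearer to even at the receptor than among the targets. Of 8 receptor and kinase genes compared, 5 had a higher CPM with tomatidine and 3 a lower one, and the median log2 ratio was 0.09. At least 25% higher was 1, which is not among the 3 named next, and at least 20% lower was 1. The shares over all genes were 12.8% and 10.9%. Ifnar1 had 274 and 305 CPM (0.15, 0.03 to 0.28), Ifngr2 52.0 and 41.1 CPM (−0.34, −0.66 to −0.03) and Jak1 162 and 140.4 CPM (−0.20, −0.38 to −0.03). None of the 8 ligand genes with probes reached 20 UMIs in any of the 8 classes, so the interferons themselves could not be compared. Of 13 sensors and adaptors 7 were higher and 6 lower (median 0.12), and of 6 inhibitors 1 was higher and 5 lower (median −0.15). Of 46 further interferon-induced genes 39 had a higher and 7 a lower CPM, and the median was 0.25. Of these, 14 were at least 25% higher and 2 at least 20% lower, against 12.8% and 10.9% of all genes in the class.

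Markers of other cells also differed in this class. The summed CPM of the 18 endothelial markers was 17183 and 18455, and that of 15 mural markers 7320 and 8959, with 12 of the 15 higher in the tomatidine library. The 15 meningeal fibroblast markers had 949 and 1101 CPM, 13 of them higher. The 16 astrocyte markers had 10045 and 7608 CPM, all 16 lower, and the 14 choroid plexus markers 2333 and 98.8 CPM, all 14 lower. The 19 interneuron markers had 452 and 862 CPM, 16 of them higher. The 16 microglial markers had 714 and 702 CPM and the 12 T cell markers 24.4 and 10.8 CPM. The part of these lists in the result was not tested. In cells with more endothelial than mural markers, an alternative chosen after seeing the data, the median of the members was 0.34. A UMI of a Y-linked gene was found in 61.4% and 59.2% of the cells, and among those cells alone the median was 0.31.

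The difference in endothelial-like cells remained without the cells richest in member UMIs. The median cell had 31.1 and 39.3 member UMIs per 10000. The 5% of cells with the most member UMIs held 26.5 and 25.9% of them. Without the 5% of cells with the highest rate of member UMIs the median log2 ratio was 0.34. The tomatidine cells of the class had a median depth of 4605 UMIs, and the control cells one of 6396. With every cell thinned to 1500 UMIs the median ratio was 0.39.

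Vessel type was read from arterial, capillary and venous markers, none of them a member. These are ranges of a score and not cell types, and 45 arterial-range, 34 capillary-range and 21 venous-range cells lay within 0.1 of the next range. Capillary-range cells were 54.2% and 43.4% of the class, arterial-range cells 26.1% and 31.4%, and venous-range cells 19.7% and 25.2%. Members had a positive median in each range. In arterial-range cells 38 of 51 members were higher, against 51.1% of all genes, with a median of 0.24. At least 25% higher were 18, against 20.1% of all genes, and at least 20% lower were 4, against 18.2%. In capillary-range cells 49 of 53 were higher, against 53.0% of all genes, with a median of 0.36. At least 25% higher were 29, against 14.8% of all genes, and at least 20% lower were 0, against 14.5%. In venous-range cells 39 of 45 were higher, against 50.4% of all genes, with a median of 0.44. At least 25% higher were 30, against 23.6% of all genes, and at least 20% lower were 2, against 23.2%. Weighted to the same vessel mix, the median of the class was 0.32. Gbp4 had ratios of 1.06, 0.93 and 1.21 in arterial, capillary and venous order. Irf7 had its highest ratio in the capillary range (0.97, 0.64 to 1.30) and Bst2 in the venous range (1.26, 0.75 to 1.80). Rsad2 was lower in the venous range, with 29 and 14 UMIs (−1.29, −2.33 to −0.32), and its intervals included 0 in the other ranges. In the arterial range Ifi30, with 38 and 22 UMIs (−1.34, −2.17 to −0.55), and Irf2bp2 (−0.33, −0.57 to −0.10) were lower. Differences between the ranges were not tested.

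**Figure D2:**
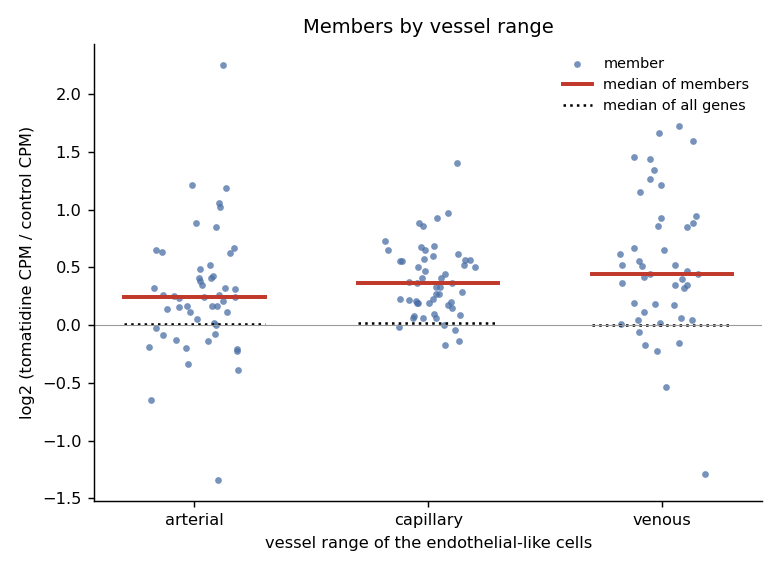
Log2 ratio (tomatidine over control CPM) of each member with 20 or more UMIs in the arterial, capillary and venous range of the endothelial-like cells; points are members, spread sideways for view, with the median of the members and the median of all genes drawn as lines. The member medians are 0.24, 0.36 and 0.44, above the medians of all genes, which lie close to 0.

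The members did not share a direction across the other classes. The class medians were 0.24 in meningeal fibroblast-like, 0.13 in excitatory neuron-like, 0.02 in oligodendrocyte precursor-like, −0.03 in astrocyte-like, −0.07 in interneuron-like, −0.09 in oligodendrocyte-like and −0.14 in microglia-like cells, where the medians over all genes ran from −0.03 to 0.06. Those of astrocyte-like and oligodendrocyte precursor-like cells took the other sign under some settings. Meningeal fibroblast-like cells were added to the comparison after their values had been seen.

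**Figure D3:**
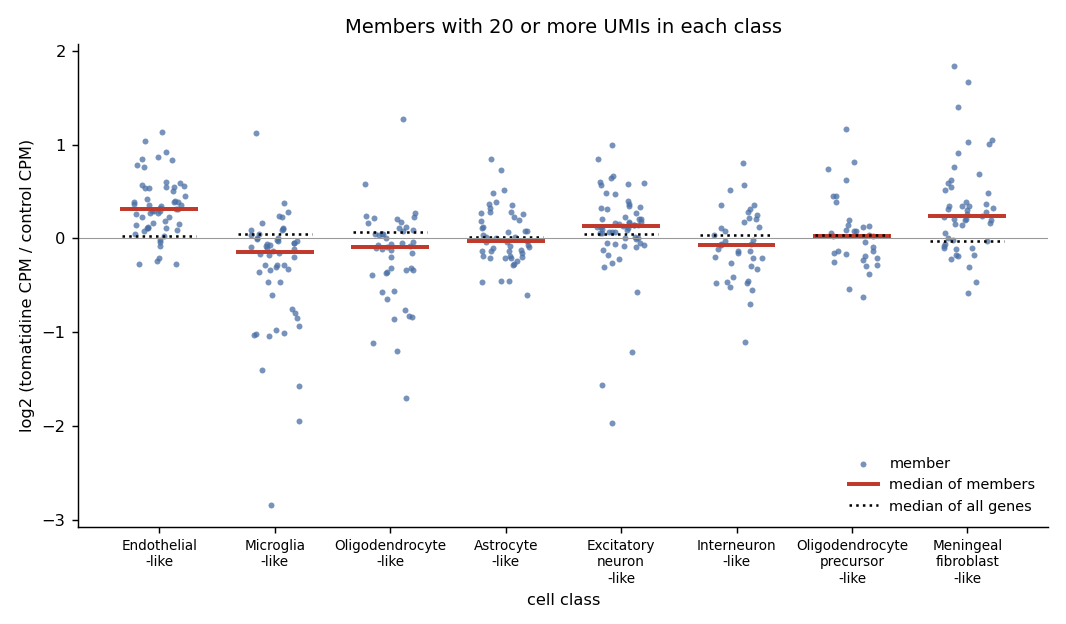
Log2 ratio (tomatidine over control CPM) of every member with 20 or more UMIs in each of the 8 classes; points are members, spread sideways for view, with the median of the members and the median of all genes drawn as lines. The member median lies above that of all genes in endothelial-like, meningeal fibroblast-like and excitatory neuron-like cells and below it in the other classes, by the least in oligodendrocyte precursor-like cells.

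In microglia-like cells, the resident macrophages of the brain, more members were lower than higher. The class held 1012 control and 881 tomatidine cells in 3 clusters, in each of which all 16 microglial markers were raised. Of 54 members compared 13 were higher and 41 lower with tomatidine, where 58.5% of all genes were higher. At least 20% lower were 19, against 7.12% of all genes, and at least 25% higher were 2, against 16.3%. Without the 5% of cells with the highest rate of member UMIs these counts were 6 lower and 8 higher, of 49 members compared. The shares of all genes under that setting are not given here. The p200 genes had 319 and 155 summed UMIs, a ratio of −0.77 (−1.05 to −0.48), and the Ifit genes 337 and 166, a ratio of −0.75 (−1.02 to −0.47). Both values rested on few cells: without the same 5% of cells the p200 ratio was −0.21 and the Ifit ratio 0.25, and the median of all members was then −0.043 in place of −0.14. Ifit3 had 164 and 75 UMIs (−0.85, −1.27 to −0.45) and Usp18 98 and 41 (−0.98, −1.54 to −0.44). Ifi30 had 972 and 657 UMIs, or 223 and 182 CPM (−0.29, −0.43 to −0.14), Xaf1 283 and 186 UMIs (−0.33, −0.60 to −0.06) and Bst2 914 and 665 (−0.18, −0.33 to −0.04). All of these were lower in the tomatidine library. The myeloid factors Irf8, with 308 and 290.2 CPM (−0.09, −0.21 to 0.03), and Irf5, with 197 and 188 CPM (−0.07, −0.21 to 0.08), had intervals that included 0, as did Stat2 (−0.20, −0.58 to 0.18), Irf9 (−0.12, −0.42 to 0.19), Isg15 (−0.08, −0.64 to 0.48) and Irf7 (0.16, −0.37 to 0.69). Stat5b was higher, with 158 and 170 UMIs (0.38, 0.06 to 0.70), and Irf2bpl had 72.9 and 85.5 CPM (0.23, 0.00 to 0.46).

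Rsad2 in microglia-like cells was carried by single cells. It had 104 and 12 UMIs in 22 and 11 cells, a log2 ratio of −2.84 (−3.84 to −1.97), and 1 control cell held 65 of the 104 control UMIs. Without the cell with the most Rsad2 UMIs in each library 39 and 10 UMIs were left, a ratio of −1.69 (−2.86 to −0.66). Markers of other cells differed in the class: the 14 choroid plexus markers had 1037 and 96.4 CPM, the 17 oligodendrocyte markers 16143 and 12692 CPM and the 12 T cell markers 108 and 21.4 CPM. Ccl5, a chemokine that is among the T cell markers and is also induced by interferon, had 102 and 10.6 of the latter CPM, and 1 control cell held 367 of its 445 control UMIs. The part of these lists in the result was not tested.

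In oligodendrocyte-like cells, the myelinating cells, 17 of 46 members were higher and 29 lower, where 64.3% of all genes were higher. At least 20% lower were 15, against 4.17% of all genes, and at least 25% higher were 2, against 15.7%. With cells chosen by a gate on detected markers in place of clusters, where 61 members were compared, the counts were 19 lower and 11 higher. Over the alternatives the count at least 25% higher ran from 0 to 11. The shares of all genes under these settings are not given here. Irgm2 had 109 and 47 UMIs (−0.83, −1.36 to −0.32), Irgm1 260 and 127 (−0.65, −0.97 to −0.34) and Irf1 182 and 94 (−0.57, −0.95 to −0.20), the lowest ratios among those with 100 or more UMIs. Irf9 had 277 and 144 UMIs (−0.56, −0.86 to −0.27), Stat3 2513 and 1522 (−0.34, −0.43 to −0.25) and Ifi27 4233 and 2477 (−0.39, −0.46 to −0.32). All of these were lower in the tomatidine library, while Xaf1, whose highest level is in this class, had 122 and 126 CPM (0.04, −0.04 to 0.13). The intervals of Stat2 (−0.07, −0.29 to 0.14), Bst2 (−0.32, −0.71 to 0.06), Irf7 (−0.09, −0.87 to 0.68), Isg15 (0.00, −0.85 to 0.83), Usp18 (0.22, −0.40 to 0.85) and Rsad2 (−0.31, −1.17 to 0.51) included 0. At the other end were Irf2bpl (0.27, 0.14 to 0.41), Ifi35 (0.23, −0.21 to 0.68) and Ifitm10 (0.21, −0.10 to 0.53). The choroid plexus markers had 594 and 83.6 CPM in this class and the microglial markers 416 and 382 CPM, and their part in the result was not tested.

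In meningeal fibroblast-like cells, of the membranes around the brain, more members were higher than lower. In 282 control and 526 tomatidine cells 34 of 49 members were higher and 15 lower, where 45.4% of all genes were higher. At least 25% higher were 19, against 13.3% of all genes, and at least 20% lower were 2, against 16.4%. Isg15 had 38 and 132 UMIs, or 26.1 and 54.0 CPM (1.05, 0.52 to 1.61), Ifit1 29 and 99 UMIs (1.03, 0.42 to 1.68) and Ifit3 103 and 252 (0.54, 0.21 to 0.89). Usp18 had 32 and 91 UMIs (0.76, 0.17 to 1.39), Bst2 155 and 373 (0.52, 0.25 to 0.80) and Stat2 53 and 124 (0.48, 0.01 to 0.97). These intervals lay above 0, while those of Irf7 (0.37, −0.27 to 1.03), Xaf1 (0.39, −0.25 to 1.07) and Irf9 (−0.22, −0.86 to 0.44) included it. Rsad2 had 26 and 139 UMIs (1.67, 1.06 to 2.34), but in 9 and 16 cells only. A single tomatidine cell held 105 of them and a single control cell 18, and without these cells 8 and 34 UMIs were left, a ratio of 1.35 (0.21 to 2.67). Lower were Irf2 (−0.59, −1.08 to −0.09), Ifitm2 with 571 and 693 UMIs (−0.47, −0.63 to −0.30) and Irf2bp2 (−0.31, −0.50 to −0.12). The direction of the class was not stable: the member median was 0.082 with the stricter cell thresholds and 0.0016 at a clustering resolution of 1.5, and the ratio of Rsad2 was then −0.47 and −0.96. Mural markers had 4022 and 5495 CPM, choroid plexus markers 2363 and 358 CPM and border macrophage markers 133 and 61.8 CPM, and their part in the result was not tested.

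Excitatory neuron-like cells held few transcripts of most induced members. In excitatory neuron-like cells 42 of 59 members were higher and 17 lower, where 63.0% of all genes were higher. At least 25% higher were 15, against 13.1% of all genes, and at least 20% lower were 4, against 3.07%. Isg15 had 0.721 and 0.691 CPM (−0.06, −0.56 to 0.44), Ifit3b 1.13 and 1.46 CPM (0.36, 0.00 to 0.73), Ifit3 1.64 and 2.05 CPM (0.32, 0.02 to 0.63) and Oas1c 0.693 and 0.864 CPM (0.32, −0.16 to 0.79). Stat2 had 21.1 and 23.2 CPM (0.14, 0.05 to 0.22) and Xaf1 4.05 and 4.68 CPM (0.21, 0.01 to 0.40). Ifitm2 was lower, with 1776 and 1034 UMIs, or 16.6 and 11.2 CPM (−0.57, −0.69 to −0.46), and so was Usp18, with 34 and 10 UMIs (−1.56, −2.74 to −0.51). Iigp1 (−0.31, −0.83 to 0.20), Oasl2 (−0.26, −0.81 to 0.27), Irf9 (−0.13, −0.27 to 0.02), Irf7 (0.56, −0.07 to 1.21), Bst2 (−0.01, −0.16 to 0.14) and Rsad2 (0.16, −0.63 to 0.94) had intervals that included 0.

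In interneuron-like cells 15 of 39 members were higher and 24 lower, where 59.9% of all genes were higher. At least 25% higher were 5, against 11.4% of all genes, and at least 20% lower were 10, against 4.85%. Ifit2 had 318 and 206 UMIs, or 23.5 and 16.9 CPM (−0.47, −0.73 to −0.22), Ifit3 174 and 113 UMIs (−0.47, −0.83 to −0.12) and Xaf1 94 and 52 (−0.70, −1.22 to −0.20), all lower with tomatidine. With cells chosen by the marker gate the ratio of Xaf1 was 0.29. Stat2 was higher, with 14.6 and 18.7 CPM (0.36, 0.07 to 0.64). Stat6 (0.32, −0.15 to 0.79), Ifit1bl1 (0.20, −0.26 to 0.67), Irf9 (−0.11, −0.55 to 0.33) and Bst2 (−0.20, −0.95 to 0.54) had intervals that included 0. The 17 oligodendrocyte markers had 2793 and 2338 CPM in this class, the 16 microglial markers 336 and 431 CPM and the 14 choroid plexus markers 319 and 32.5 CPM, and their part in the result was not tested.

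Astrocyte-like and oligodendrocyte precursor-like cells were close to balanced. In astrocyte-like cells 24 of 49 members were higher and 25 lower, where 52.6% of all genes were higher. At least 25% higher were 8, against 7.67% of all genes, and at least 20% lower were 4, against 7.44%. Bst2 had 382 and 336 UMIs, or 34.3 and 25.1 CPM (−0.45, −0.67 to −0.24), and Xaf1 17.1 and 12.4 CPM (−0.46, −0.77 to −0.16), both lower. Ifit3 was higher, with 242 and 366 UMIs, or 21.8 and 27.3 CPM (0.33, 0.09 to 0.57). The intervals of Ifit2 (−0.28, −0.67 to 0.11), Irf8 (0.48, −0.06 to 1.03), Rsad2 (0.39, −0.11 to 0.89), Usp18 (−0.46, −1.14 to 0.22), Stat2 (0.07, −0.19 to 0.33), Irf9 (−0.21, −0.51 to 0.10), Irf7 (−0.11, −0.94 to 0.73) and Isg15 (−0.19, −0.69 to 0.31) included 0. In oligodendrocyte precursor-like cells 18 of 33 members were higher and 15 lower, where 55.4% of all genes were higher. At least 25% higher were 7, against 14.1% of all genes, and at least 20% lower were 3, against 11%. Ifit3 had 66 and 74 UMIs, or 21.9 and 33.7 CPM (0.62, 0.12 to 1.12), and was higher, and Ifitm10 had 638 and 398 UMIs, or 212 and 181 CPM (−0.23, −0.41 to −0.04), and was lower. The intervals of Irf9 (0.45, −0.12 to 1.03), Stat2 (0.20, −0.37 to 0.76), Xaf1 (−0.29, −0.85 to 0.24), Irf2bpl (−0.25, −0.53 to 0.01), Bst2 (−0.62, −1.52 to 0.22), Usp18 (−0.13, −1.22 to 0.91) and Rsad2 (0.39, −0.55 to 1.32) included 0. The 17 oligodendrocyte markers had 15299 and 8334 CPM in precursor-like and 8073 and 6126 CPM in astrocyte-like cells, and the 14 choroid plexus markers 676 and 54.6 CPM and 1056 and 147 CPM. Xaf1 is highest in oligodendrocyte-like cells, and the part of these lists in its values was not tested.

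**Figure D4:**
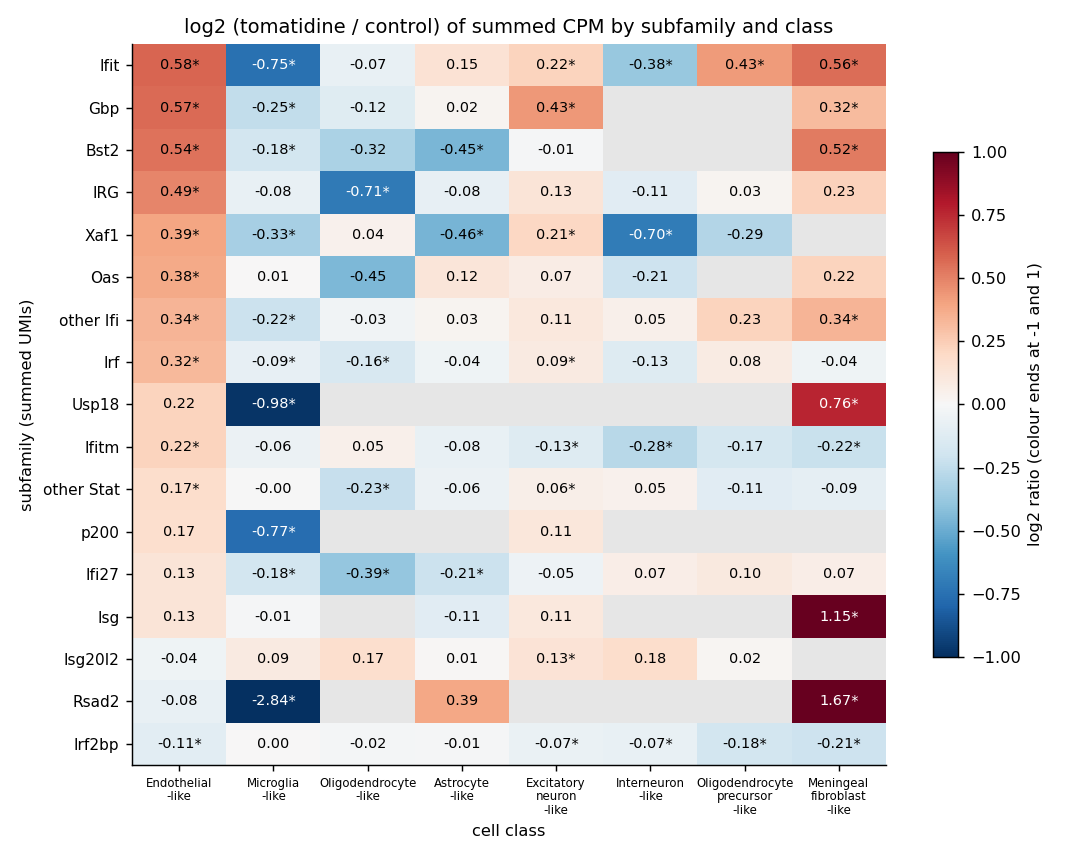
Log2 ratio (tomatidine over control) of the summed CPM of each subfamily in each class as colour, with a star where the 95% counting interval lies above or below 0; grey cells had under 100 UMIs. In the endothelial-like column Ifit, Gbp, Bst2 and IRG lead with 0.58, 0.57, 0.54 and 0.49, while the microglia-like column is lowest for Rsad2, Usp18, p200 and Ifit.

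The sums by subfamily put these patterns side by side. Gbp had ratios of 0.57 in endothelial-like, 0.43 in excitatory neuron-like, 0.32 in meningeal fibroblast-like and −0.25 in microglia-like cells; the meningeal value took the other sign at a clustering resolution of 1.5 (−0.022). IRG had 0.49 in endothelial-like and −0.71 (−0.97 to −0.45) in oligodendrocyte-like cells. The sum of the Irf2bp genes lay between −0.21 and 0.00 in all 8 classes. Without its most counted gene the sum was 0.065 in endothelial-like, 0.15 in microglia-like and 0.18 in oligodendrocyte-like cells.

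To see whether the genes met in the same cells, cells with at least 1 UMI of 3 or more of 12 type I response genes were counted (Ifit1, Ifit2, Ifit3, Ifit3b, Isg15, Irf7, Usp18, Rsad2, Oasl1, Oasl2, Ifi44 and Xaf1). As counted, 116 and 175 endothelial-like cells met this, or 39.32% (33.7 to 45.2) and 41.97% (37.2 to 46.9) of them. Free RNA can put a UMI into a cell that does not express the gene. In excitatory neuron-like cells, which held few of these transcripts, 0.829% and 0.649% met it at median depths of 16028 and 15540 UMIs. In interneuron-like cells 7.73% and 6.63% met it at median depths of 14961 and 15071.5 UMIs. The median depths of endothelial-like cells were 6396 and 4605 UMIs. The part of free RNA in each share was not tested. All 12 genes were found together in single endothelial-like cells of both libraries, and 63 of 295 control and 89 of 417 tomatidine cells had 6 or more. No UMI of the 12 genes was found in 33.2% and 28.1% of the endothelial-like cells. The 5% of these cells with the most such UMIs held 31.5% and 33.6% of them. Since the tomatidine cells were shallower, the share was also computed as the one expected at 1500 UMIs per cell, where 43 and 73 shallower cells were left out. The shares were then 5.79% (3.24 to 9.43) and 9.76% (6.84 to 13.4), with overlapping intervals. At 3000 UMIs, which left out 91 and 147 cells, they were 18.1% (13.1 to 24.1) and 27.4% (22.2 to 33.1), and the intervals overlapped again. In excitatory neuron-like cells the thinned share was 0.00605% and 0.00656%. Their median depths were 16030 and 15548 UMIs, so thinning removed a larger part of their UMIs than in endothelial-like cells. The thinned neuronal share is therefore no measure of free RNA in endothelial-like cells. The thinned shares were 2.26% and 3.17% in meningeal fibroblast-like, 1.65% and 1.16% in microglia-like, 0.415% and 0.441% in astrocyte-like and 0.167% and 0.151% in oligodendrocyte-like cells. Near the limit, 38 and 48 of the 295 control and 417 tomatidine endothelial-like cells had exactly 2 panel genes and 22 and 34 exactly 3.

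**Figure D5:**
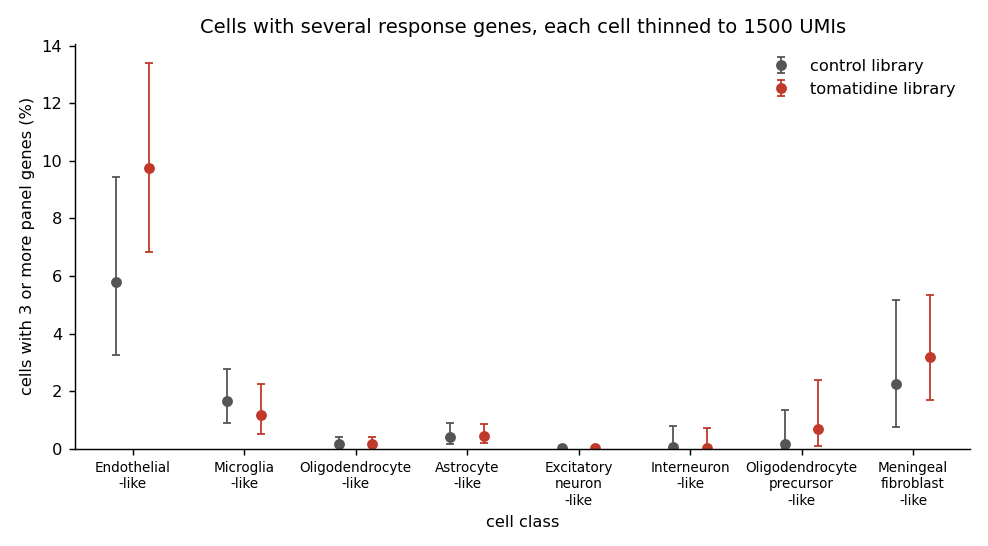
Expected share (%) of cells with at least 3 of 12 type I response genes after thinning each cell to 1500 UMIs, by class, in the control and the tomatidine library; bars are exact 95% binomial intervals for counting error only. Endothelial-like cells stand highest at 5.79% and 9.76%, followed by meningeal fibroblast-like cells.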

How the data were processed

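The authors deposited UMI counts per gene and cell for 2 libraries, made with a probe-based kit for fixed RNA from flash frozen hippocampi and aligned to mm10 with Cell Ranger, version 8.0.0 per the labels and 7.1.0 per the header of the matrices. Reads were not reprocessed. Total counts were 279525565 and 259059908 UMIs. Kept were cells with under 20% mitochondrial UMIs, a log10 genes to log10 UMIs ratio above 0.8, more than 250 genes and 500 or more UMIs. Scrublet (scanpy 1.11.5) called 0 and 2 doublets, so the 2% of cells with the highest scores were removed per library, which may leave doublets. The 292 deposited barcodes found in both libraries stayed in. Clusters came from Seurat 5.3.0 (R 4.3.3) with RPCA integration, 2000 variable genes, 30 components and a Louvain resolution of 0.8. The 38 clusters were formed without 175 genes, members and pathway genes among them, and named from markers.

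UMIs were summed per library and class and divided by all UMIs of the class. Intervals are exact Poisson, conditional binomial (ratios) and Clopper-Pearson (shares). Scripts were tested on simulated data. The named members were all with 100 or more UMIs in endothelial-like cells; in 6 other classes the 3 highest and 3 lowest ratios among members with 100 or more UMIs; the most counted gene of each subfamily, given as its sum in the plot of subfamilies; and Stat2, Irf9, Irf7, Bst2, Usp18, Rsad2, Xaf1 and Isg15 wherever they had 20 or more UMIs. Of the members counted in the totals, 2 that this rule names are not reported here. The members, gene lists and tests were chosen with earlier results of these data known. Meningeal fibroblast-like cells were added after their values were seen. Alternatives changed the cell filter, doublet removal, integration, resolution, class definition, scaling (edgeR 4.0.16 for TMM), depth, minimum count, cells and members. With 1 library per arm no test across genes was possible.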

Additional observations from a re-analysis of the deposited data

Results flagged for a closer look

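For 11 subfamilies the log2 ratio of the summed CPM lay above 0 in 1 class and below 0 in another, with counting intervals that excluded 0 in both. With 1 library per arm these differences between classes were not tested, and they are given as values. The plot of subfamilies has a value for 112 pairs of subfamily and class, 57 higher and 55 lower with tomatidine. For each of the 11, 1 pair of classes was picked after the values were seen. The intervals cover counting error only. The same count was not made for other genes or gene sums, so the 11 cannot be read as a trait of these families. Between endothelial-like and microglia-like cells the difference was 1.33 (0.58 against −0.75) for Ifit, 0.82 (0.57 against −0.25) for Gbp and 0.56 (0.34 against −0.22) for the other Ifi genes. The microglial Ifit value was 0.25 without the 5% of cells with the highest rate of member UMIs. The microglial value of the other Ifi genes was −0.0049 without their most counted gene. Between endothelial-like and oligodendrocyte-like cells the difference was 1.20 (0.49 against −0.71) for IRG, 0.48 (0.32 against −0.16) for Irf and 0.40 (0.17 against −0.23) for the Stat genes of other cytokine signals. Without their most counted gene these Stat genes had 0.31 in endothelial-like and 0.15 in oligodendrocyte-like cells, so the opposite signs rested on 1 gene. Between endothelial-like and interneuron-like cells it was 1.10 (0.39 against −0.70) for Xaf1 and 0.50 (0.22 against −0.28) for Ifitm. The interneuron Xaf1 value was 0.29 with the marker gate. Bst2 differed by 0.998 (0.54 against −0.45) between endothelial-like and astrocyte-like cells. Between meningeal fibroblast-like and microglia-like cells the difference was 4.51 (1.67 against −2.84) for Rsad2, where single cells held most UMIs, and 1.74 (0.76 against −0.98) for Usp18.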

How the results depend on the processing

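Of the values recomputed under alternatives, 1904 stayed within the counting interval of the value given above (within 0.1 for medians, within 1.5 times for counts), 225 moved further, and 28, medians and sums whose interval excluded 0, took the other sign. Leaving out the highest cell of each member and requiring more endothelial than mural markers were chosen after seeing the data. The member median in endothelial-like cells lay between 0.28 and 0.39 in all 19 alternatives. The count of members at least 20% lower there was 0, but 4 with both sets of cell thresholds, 1 at resolution 0.3, 5 with the mean of cell CPM, 4 thinned to 1500 UMIs, 3 at 10 or more UMIs and 1 at the same vessel mix, and the count higher was 10 at 1.5-fold, where fewer pass by construction. With both sets of cell thresholds the medians were 0.064 (astrocyte-like), −0.076 (oligodendrocyte precursor-like) and 0.082 (meningeal fibroblast-like), and the sums 0.024 (Irf2bp, endothelial-like), 0.085 (Ifi27, microglia-like), 0.0065 (Ifitm, excitatory neuron-like), −0.026 (other Stat, excitatory neuron-like) and −0.47 (Rsad2, meningeal fibroblast-like). Without integration the precursor median was −5.7e-05. At resolution 0.3 the astrocyte median was −0.18. At resolution 1.5 the meningeal median was 0.0016, Gbp −0.022 and Rsad2 −0.96. With the marker gate the medians were −0.32 (microglia-like), −0.17 (astrocyte-like) and −0.17 (precursor-like), and the sums 0.028 (Ifitm, excitatory), 0.29 (Xaf1, interneuron), −0.032 (Gbp, meningeal) and −0.9997 (Rsad2, meningeal). With TMM factors the precursor median was −0.017. With the mean of cell CPM the excitatory median was 0.028 and endothelial Irf2bp 0.0050. Thinned, the medians were −0.21 (oligodendrocyte-like) and 0.030 (excitatory), and endothelial Irf2bp 0.030. In cells with a Y-linked UMI the astrocyte median was 0.019. Without the 5% of cells with the highest rate of member UMIs the medians were −0.043 (microglia-like), 0.00089 (astrocyte-like), −0.044 (precursor-like) and 0.13 (meningeal), and the sums 0.25 (Ifit, microglia-like), −0.18 (Gbp, meningeal) and −0.35 (Rsad2, meningeal). At 100 or more UMIs the precursor median was −0.0084. Without their leading genes the sums were 0.065 (Irf2bp, endothelial-like), 0.15 (other Stat, oligodendrocyte-like) and 0.034 (Ifitm, meningeal). The causes were not tested. No paired analysis was possible because each arm is 1 library, which also means that mouse, pool and library cannot be told apart from the diet.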

Other observations

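Outside the families, several genes of antigen presentation on major histocompatibility complex class I differed in the same direction in endothelial-like cells. They are named after their values were seen, from the list of other interferon-induced genes. Nlrc5, the transactivator of class I genes, had 58 and 157 UMIs, or 16.7 and 40.3 CPM, a log2 ratio of 1.27 (0.83 to 1.73). The immunoproteasome subunits Psmb8 and Psmb9 had 177 and 303 UMIs (0.61, 0.34 to 0.89) and 207 and 351 UMIs (0.60, 0.35 to 0.85). The peptide transporter gene Tap1 had 115 and 178 UMIs (0.47, 0.12 to 0.82), Tap2 387 and 522 (0.27, 0.08 to 0.46) and Tapbp, which loads the peptides, 646 and 923 (0.35, 0.21 to 0.50). All of these were higher in the tomatidine library. Psmb10, a further subunit of the immunoproteasome, is on the same list, and its values are not given here. In microglia-like cells Psmb8, with 433 and 271 UMIs (−0.40, −0.62 to −0.18), Tap2, with 487 and 331 (−0.28, −0.49 to −0.08), and Tapbp, with 1450 and 1088 (−0.14, −0.25 to −0.02), were lower, while the intervals of Nlrc5 (−0.08, −0.44 to 0.28), Psmb9 (−0.20, −0.46 to 0.05) and Tap1 (−0.18, −0.44 to 0.08) included 0.

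Ccl5 went against the list in endothelial-like cells, with 44 and 7 UMIs (−2.81, −4.21 to −1.65), and was lower in microglia-like cells too, with 445 and 38 UMIs (−3.27, −3.79 to −2.79). In the microglia-like cells 1 control cell held 367 of these UMIs and 1 tomatidine cell 13, and 78 and 25 were left without them (−1.37, −2.08 to −0.70). In the endothelial-like cells the highest cells held 36 and 4. In meningeal fibroblast-like cells Cxcl10, a chemokine that draws T cells, had 17 and 90 UMIs (1.66, 0.90 to 2.50), of which single cells held 15 and 55.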
